A study of Mus musculus with 8 samples.

Results

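The genes described here are 10 genes of smooth muscle cells and pericytes, measured in mouse skin after topical enalapril. They are Acta2, Tagln, Myh11, Cnn1, Des, Lmod1 and Smtn of the contractile apparatus, the potassium channel pair Kcnj8 and Abcc9, and Rgs5. Probes were taken by gene name in the array files, synonyms included. This gave 19 probes of 41174 on the array, of which 18, covering all 10 genes, were well above background on at least 4 of 8 arrays and were tested. The remaining probe, A_52_P644232 of Acta2, was not well above background on any array.

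The RNA is from the skin of the back of 8 hairless SKH-1 males aged 19 weeks. Every mouse, controls included, had its back exposed to UVB for 10 weeks. Treatment began 1 week after the last exposure and lasted 2 weeks, with 5 applications a week of 100 microlitres to the skin. For 4 mice this was enalapril maleate at 1% w/v, dissolved in ethanol at 30 vol %, and for the other 4 the ethanol alone, called vehicle here. The series description also mentions a longer treatment and larger groups, which were not analysed here. Enalapril inhibits angiotensin-converting enzyme, which makes the vasoconstrictor angiotensin II.

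Smooth muscle of skin lies in the walls of arterioles and in the small muscles attached to hair follicles, and pericytes wrap the capillaries. Contraction slides myosin, whose heavy chain in these cells is encoded by Myh11, along filaments of smooth muscle actin, encoded by Acta2. Transgelin, calponin, leiomodin and smoothelin bind or build those actin filaments, and desmin forms the intermediate filaments around them. Many of these genes are switched on by serum response factor, which binds a DNA element called the CArG box, together with its partner myocardin. In mural cells, the smooth muscle cells and pericytes of vessels, Kcnj8 encodes Kir6.1 and Abcc9 encodes SUR2, the pore and the regulatory subunit of an ATP-sensitive potassium channel that relaxes vessels when it opens. Rgs5, a pericyte marker, encodes a protein that switches off signals of G protein-coupled receptors, the angiotensin receptor among them. Kcnj8 and Abcc9 are neighbours on chromosome 6, with 0 protein-coding genes between them in the RefSeq table of GRCm38.p6.

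Levels are log2 intensities relative to the 75th percentile of each array, which is set to 0, so they show change between arrays and are not compared between probes. The 75th percentile itself was 1540 intensity units on vehicle 2 and vehicle 3, and 821.5 to 1070 on the other arrays. The share of spots well above background ran from 67.1% to 72.7% by array, with 0 spots saturated. Each group had a slide and a scan of its own, and so treatment and slide cannot be told apart anywhere in these data. Local background had a median of 57 to 66 intensity units on the vehicle slide and of 48 to 52 on the enalapril slide. The array enalapril 4 correlated least with its group (mean r of 0.975, against 0.983 to 0.991 for the others). All 10 keratinocyte markers and all 10 fibroblast markers of the skin were measured. In whole skin, fewer cells of a type and less RNA per cell cannot be told apart.

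Enalapril-treated skin had lower levels of Kcnj8, Lmod1 and Tagln, each on 1 probe. On these probes Kcnj8 stood at 64.3% of the vehicle level, Lmod1 at 66.9% and Tagln at 70.0%. The second probes of Kcnj8 and Tagln stood at 86.3% and 89.2% and did not pass, and Lmod1 has no other probe. Acta2, desmin and Abcc9 each had a probe that did not pass the test although its groups did not overlap, enalapril being the lower, and Myh11 and 1 probe of Rgs5 had differences above 0. In limma's moderated test, with p adjusted by Benjamini-Hochberg over all 28580 tested probes, 3 of the 18 probes passed at an adjusted p under 0.05, all lower. Without enalapril 4, 4 passed, these 3 and Acta2 A_52_P420504, in a fit where 24.7% of all tested probes passed. Without vehicle 1 or enalapril 2 none passed, where 1.4% and 1.47% of all tested probes did. The 3 are 16.7% of the probes, against 10.4% of all tested probes passing in either direction and 6.61% passing as lower. No probe of the 10 genes passed as higher (3.82% of all probes did), and 2 were higher at an unadjusted p under 0.05. At that unadjusted level 9 of the 18 (50%) differed in either direction, against 29.4% of all tested probes. The median difference of the 18 probes was −0.21 log2, against −0.05 over all tested probes, and 13 of 18 (72.2%) were below 0, against 55.5% of all tested probes. The groups did not overlap for 6 of the 18 probes (33.3%), all lower in enalapril; over all tested probes this held for 20.2%, in 13.1% as lower and in 7.12% as higher.

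**Figure D1:**
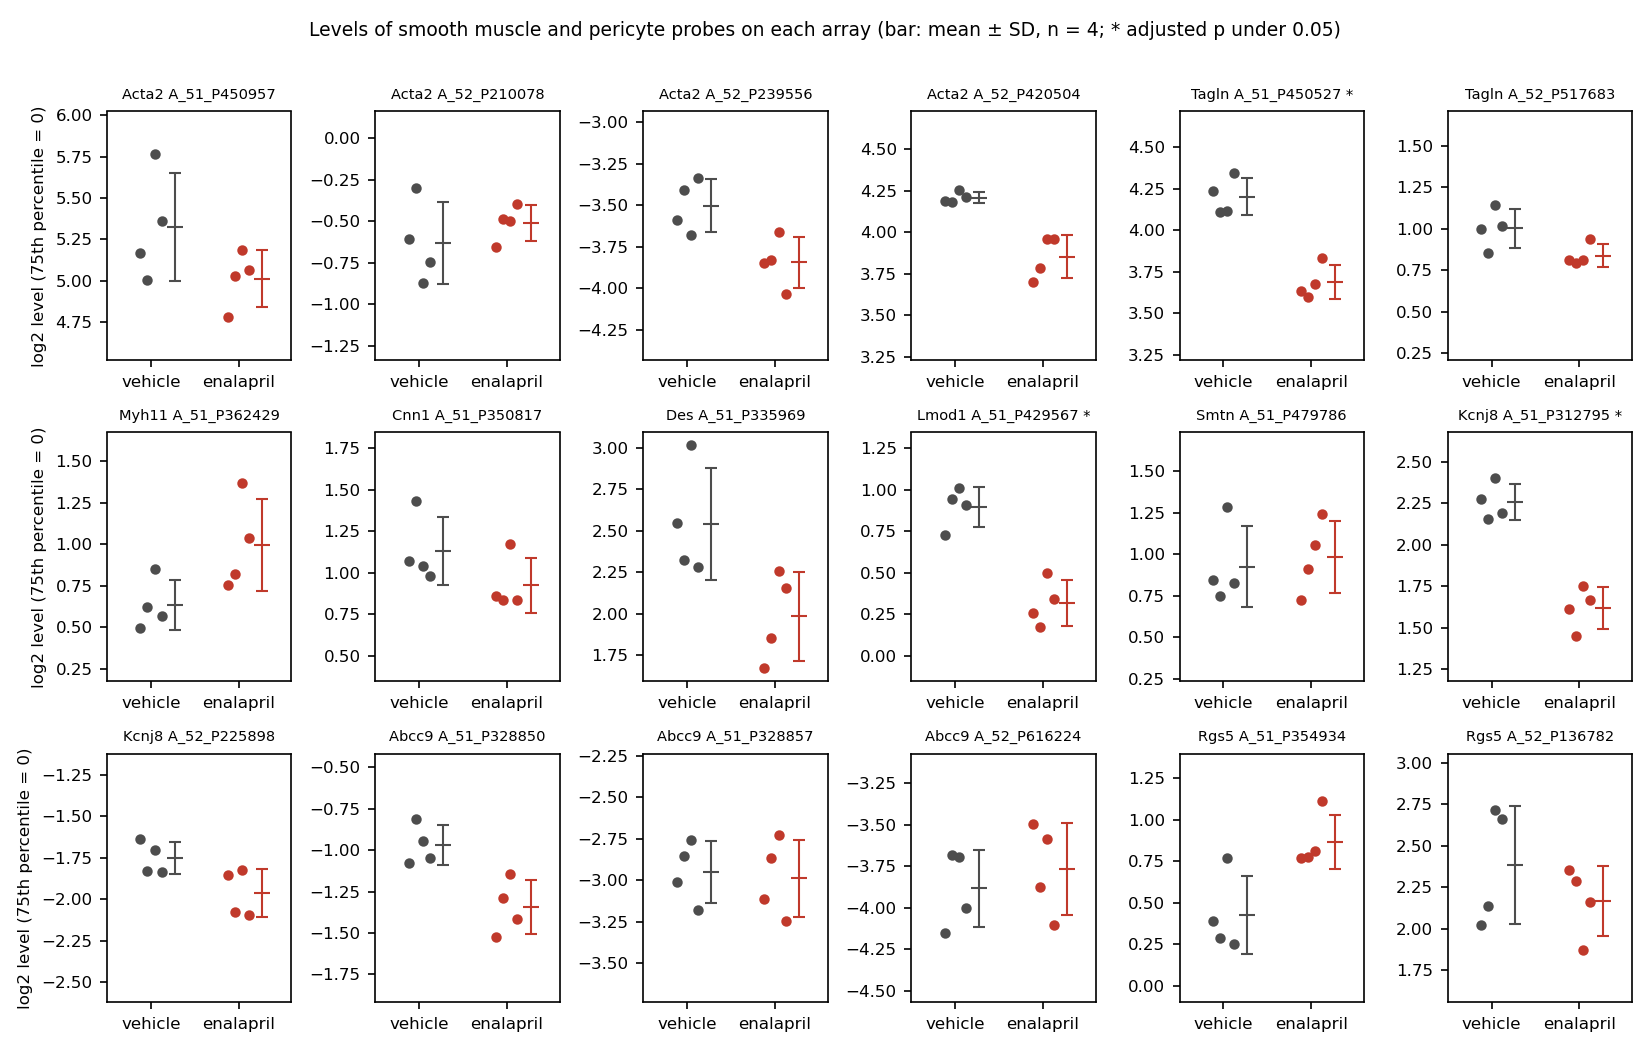
Level of each of the 18 tested probes on each array (log2, 75th percentile of the array at 0; 1 point per mouse, bar is mean ± SD, n = 4 per group; every panel spans the same log2 range). The enalapril points lie below all vehicle points for Kcnj8 A_51_P312795, Lmod1, Tagln A_51_P450527, Des, Abcc9 A_51_P328850 and Acta2 A_52_P420504, and an asterisk marks the 3 probes that passed.

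Kcnj8, the channel pore, had the largest difference among the probes that passed. On probe A_51_P312795 the 4 vehicle arrays read 2.28, 2.16, 2.40 and 2.19, and the 4 enalapril arrays 1.61, 1.45, 1.75 and 1.67. Every enalapril array lay below every vehicle array, and the gap between the groups exceeded the range within either. Kcnj8 fell by 0.64 ± 0.11 log2 (limma standard error, n = 4 per group), or 1.56-fold (adjusted p = 0.0172). The second Kcnj8 probe, A_52_P225898, had group means of −1.75 ± 0.10 and −1.96 ± 0.14 (SD, n = 4), a difference of −0.21 ± 0.11 that did not pass (adjusted p = 0.228). The call of the first probe was lost without vehicle 1 (limma adjusted p = 0.0526) and without enalapril 2 (limma adjusted p = 0.0539).

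Abcc9, the channel's regulatory subunit, is read by 3 probes. Per the file descriptions they were designed on different transcript variants, A_51_P328850 on one and A_51_P328857 and A_52_P616224 on another. Probe A_51_P328850 read −1.08, −0.81, −0.94 and −1.05 in vehicle and −1.52, −1.29, −1.15 and −1.41 in enalapril. The groups did not overlap, and the difference of −0.37 ± 0.12 did not pass (limma adjusted p = 0.0754). On A_51_P328857 the group means were −2.95 and −2.99, and on A_52_P616224 they were −3.88 and −3.76. Their differences, −0.04 ± 0.15 (95% confidence interval −0.37 to 0.30) and 0.12 ± 0.17 (−0.27 to 0.51), did not pass, and both groups overlapped. These intervals leave out neither a moderate fall nor a moderate rise, and the signs turned with some settings (−0.25 for A_52_P616224 in the uncentred series matrix values, 0.03 for A_51_P328857 by normexp background correction).

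The other ATP-sensitive channel subunits did not pass either. Kcnj11, which encodes the pore Kir6.2, had a difference of −0.38 ± 0.24 (limma adjusted p = 0.336). Abcc8, which encodes SUR1, had a tested probe at −0.67 ± 0.23 (limma adjusted p = 0.0918) and a second probe that was not well above background on any array. The groups overlapped for both.

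Lmod1 encodes leiomodin, which seeds actin filaments in smooth muscle cells. It read 0.73, 0.94, 1.01 and 0.91 in vehicle and 0.26, 0.18, 0.50 and 0.34 in enalapril, with no overlap. Lmod1 fell by 0.58 ± 0.11 log2, or 1.49-fold (limma adjusted p = 0.0216). Its call held without vehicle 3, enalapril 3 or enalapril 4 and was lost without each of the other arrays (adjusted p up to 0.0631, limma).

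Tagln encodes transgelin, also called SM22, an actin-binding protein of early and mature smooth muscle. On probe A_51_P450527 vehicle arrays read 4.24, 4.11, 4.12 and 4.35 and enalapril arrays 3.64, 3.60, 3.68 and 3.83. The lowest vehicle value stood above the highest enalapril value. Tagln fell by 0.52 ± 0.10 log2, or 1.43-fold, on this probe (limma adjusted p = 0.0238). The other probe, A_52_P517683, read 1.00 ± 0.12 in vehicle and 0.84 ± 0.07 in enalapril (SD, n = 4) and did not pass (−0.16 ± 0.10; limma adjusted p = 0.297). The call of A_51_P450527 held only without vehicle 3 or enalapril 4 (limma adjusted p up to 0.0701 without the others), and by quantile normalization its difference was −0.33 (limma adjusted p = 0.0654).

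Acta2, smooth muscle actin, has 4 tested probes that did not give the same difference. Probe A_52_P420504, printed as 10 spots on each array, read 4.19, 4.18, 4.25 and 4.22 in vehicle and 3.70, 3.79, 3.96 and 3.96 in enalapril. The groups did not overlap, but the difference of −0.36 ± 0.10 lay just outside the threshold (limma adjusted p = 0.0512). Without enalapril 4 it passed (limma adjusted p = 0.0248), and by quantile normalization the difference was −0.17 (limma adjusted p = 0.298). The brightest Acta2 probe, A_51_P450957, was at 5.33 ± 0.33 and 5.01 ± 0.17 (SD, n = 4), a difference of −0.31 ± 0.17 with overlapping groups, and of −0.17 without vehicle 3 and −0.14 by quantile normalization. A_52_P239556 was at −0.34 ± 0.12 (limma adjusted p = 0.108) and A_52_P210078 at 0.12 ± 0.14 (limma adjusted p = 0.601), the latter −0.25 in the uncentred series matrix values. Acta2 is close in sequence to other actin genes, and cross-hybridisation was not tested.

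Desmin had the largest standard error of the 18 probes. Des, also printed as 10 spots, read 2.55, 2.33, 3.01 and 2.28 in vehicle and 1.67, 1.86, 2.26 and 2.16 in enalapril. The lowest vehicle array and the highest enalapril array were only slightly apart. The difference of −0.56 ± 0.20 did not pass (limma adjusted p = 0.103). Desmin is also a protein of skeletal muscle, and the 12 skeletal muscle genes of a marker list were measured on the same arrays. Of their 26 probes 6 fell and none rose, and their median was −0.44. At an unadjusted p under 0.05, 11 were lower and 0 higher (limma). The 6 are 23.1%, against 6.61% of all tested probes passing as lower. Tnnc2, a troponin of fast fibres, fell by 0.69 ± 0.14 (limma adjusted p = 0.0241) and Pvalb, a calcium buffer of fast fibres, by 0.90 ± 0.19 (limma adjusted p = 0.0264). The list's count was 0 without vehicle 1 or enalapril 2 and 13 without enalapril 4. In these fits 1.4%, 1.47% and 24.7% of all tested probes passed. A list's summed level is log2 of the sum of its tested probes' levels on the linear scale, so the brightest probes weigh most. For the skeletal muscle list it ran from 9.77 to 10.35 in vehicle and from 9.54 to 9.70 in enalapril. The part of skeletal muscle in the desmin difference was not tested.

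Myh11, the smooth muscle myosin gene, had a difference above 0. It read 0.50, 0.62, 0.85 and 0.57 in vehicle and 0.76, 0.82, 1.37 and 1.04 in enalapril. The groups overlapped: the highest vehicle array, vehicle 3, lay above enalapril 1 and 2. The difference of 0.36 ± 0.15 did not pass (limma adjusted p = 0.159; 95% confidence interval 0.01 to 0.71) and turned to just below 0 in the uncentred series matrix values. Cnn1, which encodes calponin, was at −0.20 ± 0.14 (limma adjusted p = 0.350). Smtn, which encodes smoothelin, was at 0.06 ± 0.16 (limma adjusted p = 0.840), and its sign turned by normexp (−0.01), E1A control centring (−0.01) and in the series matrix values (−0.31). Both groups of Cnn1 and of Smtn overlapped.

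**Figure D2:**
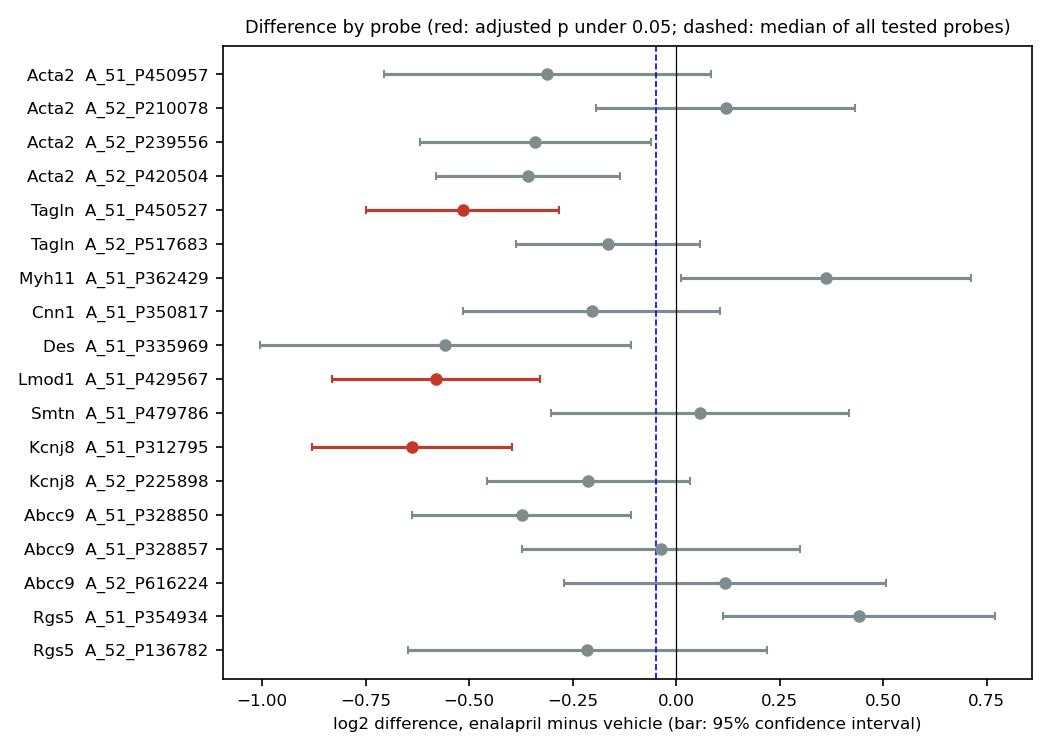
Difference between the group means for each tested probe (log2, enalapril minus vehicle; point is limma's estimate, bar its 95% confidence interval, n = 4 per group). The 3 red probes passed, Kcnj8 A_51_P312795 at −0.64, Lmod1 at −0.58 and Tagln A_51_P450527 at −0.52, while Myh11 at 0.36 and Rgs5 A_51_P354934 at 0.44 lie on the other side of 0; the dashed line is the median of all tested probes.

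Rgs5 is read by 2 probes that differed in sign. A_51_P354934 read 0.39, 0.29, 0.77 and 0.25 in vehicle and 0.77, 0.78, 0.81 and 1.11 in enalapril. Only vehicle 3 reached the enalapril range. The difference was 0.44 ± 0.14 (limma adjusted p = 0.0848), and without vehicle 3 it passed (limma adjusted p = 0.0457). A_52_P136782 read 2.02, 2.14, 2.71 and 2.66 in vehicle and 2.35, 2.29, 1.87 and 2.16 in enalapril, a difference of −0.21 ± 0.19 (limma adjusted p = 0.488) with overlapping groups. Among 9 other genes of the RGS family, 2 of 16 probes fell (12.5%) and none rose. Of all tested probes 10.4% passed in either direction and 6.61% as lower. At an unadjusted p under 0.05, 6 RGS probes were lower and 0 higher (limma). The 2 that fell were of Rgs2, by 0.49 ± 0.11 (limma adjusted p = 0.0281), and of the platelet and myeloid gene Rgs18, by 0.61 ± 0.16 (limma adjusted p = 0.0498). Their second probes were at −0.14 and −0.09 and did not pass, and by quantile normalization neither gene passed. With single arrays left out, Rgs2 kept its call without vehicle 3 or enalapril 4, and Rgs18 without enalapril 4 only. The summed level of the RGS list was 5.55 to 5.78 in vehicle and 5.23 to 5.43 in enalapril, without overlap.

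Whether the contractile genes differed from each other was examined as the difference between 2 probes on the same array, in which a shift of a whole array cancels. Each of the 10 other contractile probes was set against Myh11, a reference chosen after its values were seen. Relative to Myh11, Lmod1 was at 0.26 ± 0.08 in vehicle and −0.68 ± 0.15 in enalapril (SD, n = 4), a change of −0.94 log2. Desmin changed by −0.92, Tagln A_51_P450527 by −0.88 and Acta2 A_52_P420504 by −0.72 relative to Myh11. For 8 of the 10 probes all enalapril arrays lay below all vehicle arrays, which also held for 27% of all other tested probes set against Myh11 (27.6% in either direction). The exceptions were Smtn (−0.30) and Acta2 A_52_P210078 (−0.24). All 10 differences share the Myh11 probe, which was taken as reference after its own difference was seen to be above 0, so they are a description and no test is given.

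**Figure D3:**
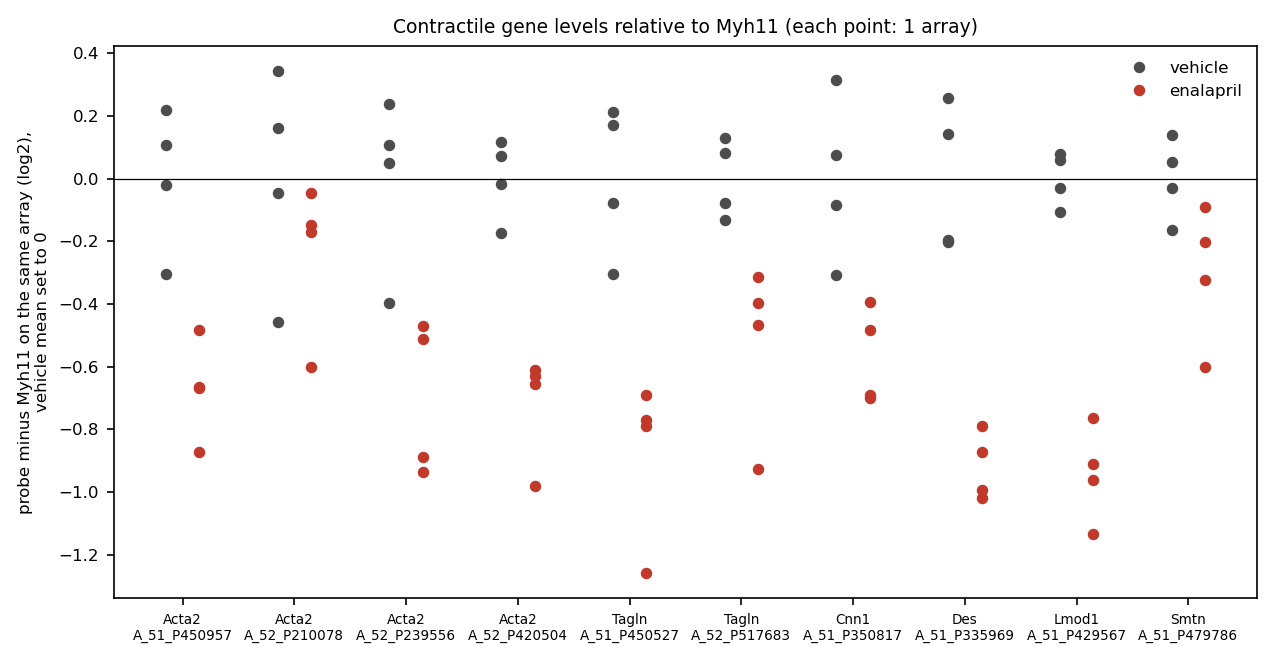
Contractile gene probes relative to Myh11 on the same array (log2; 1 point per array, 4 vehicle and 4 enalapril, with the vehicle mean of each probe set to 0). The enalapril points lie below all vehicle points for all probes but Acta2 A_52_P210078 and Smtn, with changes from −0.53 for Tagln A_52_P517683 to −0.94 for Lmod1.

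The same measure was used for the 12 pairs of tested probes that read 1 gene. Brighter minus dimmer, the Kcnj8 pair went from 4.01 ± 0.08 in vehicle to 3.58 ± 0.13 in enalapril, the Tagln pair from 3.20 ± 0.16 to 2.85 ± 0.04, and the Rgs5 pair from 1.96 ± 0.33 to 1.30 ± 0.29 (SD, n = 4). In each of these 3 genes the groups did not overlap, and the brighter probe had the lower difference of the pair. In all, the groups did not overlap for 6 of 12 pairs, 5 of them lower in enalapril and 1 higher. No overlap was found for 15.3% of all 13319 such pairs on the array, and for 9.88% as lower. The pairs of Acta2 share probes with each other, as do those of Abcc9, so the 12 pairs are not independent. The exact permutation p of each of the 6 pairs without overlap was 0.0286 (two-sided), the smallest that 70 assignments of 8 arrays allow. Any pair without overlap has this p, so it adds nothing to the absence of overlap. No adjusted p is given, because the 22 probe pairs computed include those with Myh11, a reference chosen after its values were seen. By quantile normalization, which is no plain shift of an array, the Kcnj8 difference went from −0.43 to −0.27, that of Tagln from −0.35 to −0.21, and that of Acta2 A_52_P420504 minus A_52_P210078 from −0.48 to −0.28. The other 3 moved less, Rgs5 from −0.66 to −0.56, Abcc9 A_51_P328850 minus A_52_P616224 from −0.49 to −0.50, and Acta2 A_52_P210078 minus A_52_P239556 from 0.46 to 0.47. Probe positions within the transcripts were not analysed here.

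Other genes of the contractile apparatus also held probes that fell beside others that did not pass. In a list of 27 such genes, 26 were tested with 49 probes, and 9 probes of 8 genes fell while none rose. At an unadjusted p under 0.05, 12 were lower and 7 higher (limma). The 9 are 18.4% of the probes, against 6.61% of all tested probes passing as lower and 10.4% in either direction. The list's median was 0.06, above that of all probes. Its summed level was 8.31 to 8.65 in vehicle and 8.17 to 8.38 in enalapril, so the groups overlapped. Myl9, the regulatory light chain of smooth muscle myosin, fell by 0.58 ± 0.12 (limma adjusted p = 0.0246), and Synpo2, an actin-bundling protein, by 0.66 ± 0.14 (limma adjusted p = 0.0311), while other Synpo2 probes were at 0.26, 0.27 and −0.08. Pdlim3, a protein of the actin anchoring sites that skeletal muscle also makes, fell by 0.75 ± 0.15 (limma adjusted p = 0.0244). Sncg, a gamma-synuclein also made by fat cells, fell by 0.82 ± 0.15 (limma adjusted p = 0.0195). The others, named after their values were seen, were Nexn, Tpm2, the myosin phosphatase inhibitor Ppp1r14a, and Kcnmb1, the beta subunit of the calcium-activated potassium channel of smooth muscle, which fell by 0.81 ± 0.20 (limma adjusted p = 0.0424). The list's count was 0 without vehicle 1, enalapril 2 or enalapril 3, 1 to 3 without vehicle 2, vehicle 3, vehicle 4 or enalapril 1, and 17 without enalapril 4. It was 4 by quantile normalization and 0 by E1A control centring, where 7.36% and 0.98% of all tested probes passed. With single arrays left out that share ran from 1.4% without vehicle 1 to 24.7% without enalapril 4. Of adipocyte markers 4 of 15 probes fell and none rose (8 lower and 0 higher unadjusted, limma). The 4 are 26.7%, against 6.61% of all tested probes passing as lower. All 15 were below 0, against 22 of the 49 contractile probes, and the adipocyte median was −0.44. Summed adipocyte levels were 7.89 to 8.27 in vehicle and 7.50 to 7.82 in enalapril. Without vehicle 1, enalapril 1 or enalapril 2 the adipocyte count was 0, and the part of these cells in the result was not tested.

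Other pericyte and mural cell markers went both ways. Of 20 listed genes 18 were tested with 32 probes, of which 1 rose and 1 fell (6.25%, under the 10.4% of all probes), and the median was 0.01. Higd1b, a mitochondrial protein used as a pericyte marker, fell by 0.56 ± 0.14 (limma adjusted p = 0.0382). A probe of Ednra, the endothelin A receptor of smooth muscle, rose by 0.69 ± 0.18 (limma adjusted p = 0.0481), while other Ednra probes were at 0.26 and −0.01. A probe of the adhesion protein Mcam was at 0.65 ± 0.18 (limma adjusted p = 0.0561) and the other at 0.06. Pdgfrb, the receptor that recruits pericytes, was at 0.11 ± 0.11 (limma adjusted p = 0.538), a value given after it was seen. The calls of Higd1b and Ednra held in none of the fits with 1 array left out but the one without enalapril 4. The summed level of the list was 5.20 to 5.45 in vehicle and 5.29 to 5.41 in enalapril, so the groups overlapped.

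**Figure D4:**
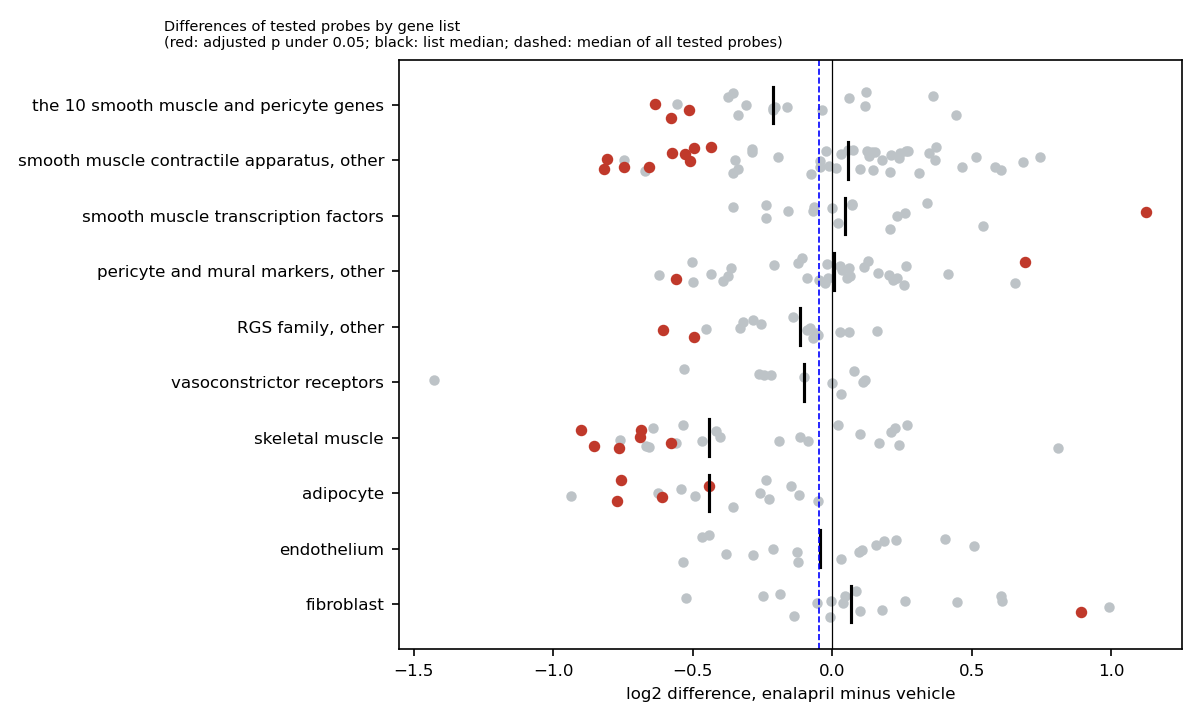
Differences of all tested probes of the 10 genes and of 9 comparison lists (log2, enalapril minus vehicle; 1 point per probe, red for an adjusted p under 0.05, black line for the list's median, dashed line for the median of all tested probes). The median is −0.21 for the 10 genes, 0.06 for the other contractile genes, 0.01 for the other pericyte markers and −0.44 for both skeletal muscle and adipocytes.

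Of endothelial markers 0 of 16 probes passed (limma; 5 were lower and 0 higher at an unadjusted p under 0.05), with a median of −0.05. Over all tested probes, 10.4% passed with all 8 arrays unweighted, 24.7% without enalapril 4 and 29.9% with array weights. Of the endothelial probes, 7 passed without enalapril 4, as did 7 with array weights. Their summed level was 4.74 to 4.88 in vehicle and 4.58, 4.52, 4.47 and 4.95 on the enalapril arrays, so that only enalapril 4 was not below the vehicle range. Robo4, an endothelial guidance receptor, had the smallest p among them, at −0.47 ± 0.14 (limma adjusted p = 0.0621), and at −0.58 without enalapril 4 (limma adjusted p = 0.00907). Receptors for vasoconstrictors also gave 0 of 11 probes (limma; 1 was lower and 0 higher unadjusted), but 3 without enalapril 4 and 2 with array weights, without a filter on dim probes or with probes above background on at least 1 array. Agtr1a, the angiotensin II receptor of vessel walls, was at −0.27 ± 0.15 and −0.25 ± 0.11 on its probes. Without enalapril 4 the first was at −0.39 and passed (limma adjusted p = 0.0452), as did the thromboxane receptor gene Tbxa2r at −0.39 (limma adjusted p = 0.0490; −0.22 on all arrays). The adrenergic receptor gene Adra1b has 2 probes on the array. The one with the smallest p was at −1.43 ± 0.61 (limma adjusted p = 0.162) and was dim, with means of −5.70 in vehicle and −7.13 in enalapril. The remaining cell types were read in the same way. Of Schwann cell markers 2 of 14 probes fell (14.3%, against 6.61% of all tested probes passing as lower and 10.4% in either direction). S100b fell by 0.59 ± 0.11 (limma adjusted p = 0.0195) and 1 of 5 Erbb3 probes by 0.88 ± 0.23 (limma adjusted p = 0.0490). That Erbb3 probe was dim, with means of −5.48 in vehicle and −6.35 in enalapril, and its difference was 0.021 by normexp. The brightest Erbb3 probe was at 0.08 ± 0.16. The Schwann count was 0 without vehicle 1, vehicle 2, enalapril 1 or enalapril 2, and 1 with probes above background on all 8 arrays. A single probe rose in each of the lists of fibroblasts (1 of 18, 5.56%), keratinocytes (1 of 21, 4.76%) and leukocytes (1 of 17, 5.88%). Of all tested probes 3.82% passed as higher and 10.4% in either direction. Without enalapril 4 the counts of these lists were 5, 4 and 5, where 24.7% of all tested probes passed. With any other array left out the counts were 0, except for 1 fibroblast probe without vehicle 2. The summed level of the fibroblast list was 9.48 to 10.03 in vehicle and 9.72 to 9.85 in enalapril, and that of keratinocytes 10.32 to 10.98 and 10.45 to 10.71, so the groups overlapped in both.

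Among transcription factors of smooth muscle, 1 of 16 probes passed (6.25%, under the 10.4% of all tested probes in either direction). Nkx2-3, a homeobox factor, rose by 1.13 ± 0.29 (limma adjusted p = 0.0443) with overlapping groups. Its probe was dim, with means of −4.53 in vehicle and −3.41 in enalapril. It passed in only 1 of the 8 fits with an array left out, and the list's count was 0 without a filter on dim probes. Srf, serum response factor itself, was at −0.36 ± 0.11 with groups that did not overlap (limma adjusted p = 0.0747), and without enalapril 4 it passed (limma adjusted p = 0.0279). Its partner Myocd was at 0.54 ± 0.32 (limma adjusted p = 0.297), and without enalapril 4 at 0.88, which passed as higher (limma adjusted p = 0.0118). The second Myocd probe was at 0.02 ± 0.27 (limma adjusted p = 0.969).

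The element that serum response factor binds was looked for in the RefSeq promoters of GRCm38.p6, which run from 250 bases before to 50 after a gene's start, on both strands (the pattern is its own reverse complement). The table holds 8 of the 10 genes, and Tagln and Myh11 are not among them. No promoter of the 8 held an exact CArG box, which 1.63% of all 32851 promoters did. Allowing 1 base other than A or T in the core, Acta2 held 2 matches that do not overlap, and the other 7 held none; 9.98% of all promoters held at least 1. The stretch with both is shown because Acta2 alone of the 8 promoters held such matches. It lies at chr19:34255388-34255467 of GRCm38.p6 on the minus strand, from base 94 to base 15 before the start, and capitals mark the matches.
Acta2: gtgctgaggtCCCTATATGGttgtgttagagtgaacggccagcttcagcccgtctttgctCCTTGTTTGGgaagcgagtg
A match describes these letters, and the absence of one elsewhere says only that these windows do not hold them.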

How the data were processed

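Agilent mouse arrays of 1 colour (Cy3) measured RNA of 8 skin samples. The linear intensity of each spot in the deposited scanner files was made with Feature Extraction of Agilent, version 9.1.3.1 per the file headers (9.1 per the submitters' processing notes); background was subtracted and a spatial trend removed, without scaling across arrays. Its deposited 0 or 1 flags (units of the other kind) served to filter spots and probes. The log2 values of the authors' series matrix equalled log2 of that intensity, uncentred, within 0.01 for 100% of probes on every array. What else the authors did is not given in the sources used here.

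Spots flagged as outliers were left out and spots of a probe averaged on the log2 scale, giving 41127 probes with a value on every array. The 75th percentile of an array's non-control spots was subtracted. Every probe well above background on at least 4 arrays was tested with limma 3.58.1 (R 4.3.3) by lmFit and eBayes, group as the only term, two-sided, with Benjamini-Hochberg adjustment over all probes. An error after a difference is limma's standard error, and one after a level is the SD. The number of arrays limits the precision. List genes were named through RefSeq names of GRCm38.p6 (22951 probes by accession, 6659 by symbol, 3096 by synonym, 2024 with the file's name only, 6444 unnamed); of each list up to 4 genes with the smallest p are named, and others are said to be chosen after their values were seen. The 10 genes, the lists and the tests were chosen with earlier results of these data known. Differences between probes on 1 array, and Myh11 as their reference, were chosen after values were seen. The fit was tested on simulated data. Alternatives were normexp with an offset of 50 (6 far-off local backgrounds on enalapril 3 replaced), quantile normalization, median and E1A control centring (10 control probes), 1 probe per gene, other filters on dim probes, the series matrix values, a robust intensity trend, weights for arrays, the replicate number as a block, flagged spots kept, and each array left out. Slide and scan could not be fitted as blocks, because each held 1 group.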

Additional observations from a re-analysis of the deposited data

Results flagged for a closer look

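Of 38 groups of 4 arrays, 2 for each of the 19 probes, 3 held an array whose gap to its nearest neighbour took most of the group's range (Dixon's criterion at 95%, critical value 0.829); chance flags about 1 in 20 such groups. For Cnn1, enalapril 3 was the highest of its group at 1.17, with the next at 0.86. For Rgs5 A_51_P354934, enalapril 4 stood at 1.11, with the next at 0.81. For Tagln A_52_P517683, enalapril 4 stood at 0.94, with the next at 0.81. None of these 3 probes passed the test.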

How the results depend on the processing

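Of all tested probes 2979 changed, 36.6% of them higher, and the count depended on the arrays and on the scaling. It was 1988 by normexp, 1981 by median centring, 1548 in the uncentred series matrix values, 280 by E1A control centring, 1392 with no filter on dim probes and 8534 with array weights. With single arrays left out it ran from 396 without vehicle 1 to 6991 without enalapril 4. The share of higher calls was 46.7% by quantile normalization and 4.97% in the series matrix values, in which the median of all probes was −0.41 instead of −0.05. The replicate number as a block left 38 probes changed and 0 of the 10 genes' probes. The deviations of same-numbered arrays correlated between −0.13 and 0.17, and of the 4 vehicle arrays only vehicle 3 correlated best with its own number. The labels name no pairing, and 4 arrays per group are too few for these correlations to decide whether same-numbered arrays belong together.

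The 3 probes of the 10 genes that passed became 2 by quantile normalization (Tagln lost) and 1 in the series matrix values (Kcnj8 alone, limma adjusted p = 0.0480). The count was 0 by E1A control centring and 8 with array weights. In these fits, in the same order, 7.36%, 5.42%, 0.98% and 29.9% of all tested probes passed. With single arrays left out the count ran from 0 to 4, being 0 without vehicle 1 or enalapril 2. Of all tested probes 1.4% passed without vehicle 1, 1.47% without enalapril 2 and 24.7% without enalapril 4. Kcnj8 A_51_P312795, Lmod1 and Tagln A_51_P450527 were below 0 in all 21 alternative fits. Among other genes named, Erbb3 of the Schwann cell list, at −0.88 as reported, turned to 0.021 by normexp (limma adjusted p = 0.947).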
